A study of Mus musculus with 20 samples.

Results

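Squamous cell carcinomas of the skin that arose in mice lacking p53 in keratinocytes were compared with the epidermis of old wild-type mice, gene by gene. The comparison used 5 of the 20 bulk RNA sequencing libraries of the series, those of the 3 PKO cSCC samples and of the 2 old WT samples, and all 51123 gene identifiers of the count table, of which 18164 passed the filter on low counts. PKO cSCC stands for cutaneous squamous cell carcinomas from K14cre;p53fl/fl mice, in which the keratin 14 promoter drives Cre recombinase and floxed p53 alleles are recombined in basal keratinocytes and their progeny. These mice were followed for spontaneous tumours and taken when a tumour was found, and no age is given for them. The old WT samples are tdTomato-positive cells of epidermis from mice aged 400 days or more. Their titles read wild type with no Cre or floxed allele named, so the driver of the reporter in them is not stated in the labels. All 5 samples were dissociated tissue sorted for the tdTomato reporter, with different dissociation protocols for epidermis and for tumour, so tumour and protocol cannot be told apart. The other 15 libraries, which share the fit, are carcinomas lacking both p53 and Wwox (DKO cSCC, n = 3) and young epidermis, from mice 100 to 120 days old, that is wild type or lacks Wwox, p53 or both (n = 3 each).

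Epidermis is renewed by basal keratinocytes, which carry keratins 5 and 14 and sit on the basement membrane, and which stop dividing, switch to keratins 1 and 10 and cornify as they move outward. p53 is a transcription factor that damage and oncogenic signals stabilise. It switches on arrest and death genes such as Cdkn1a and Bbc3 as well as its own inhibitor Mdm2, and it lowers many cell cycle genes indirectly. Wounded and malignant squamous epithelium is known for replacing keratins 1 and 10 with keratins 6, 16 and 17.

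Total counts of the 5 libraries ranged from 12600587 to 16227413, and mitochondrial ribosomal RNA took 19.3% to 39.2% of them. Krt5, Krt14, Krt1, Krt10 and Trp63, the markers that check the keratinocyte label, were all present in each of the 5 libraries. None stood at less than 25.3 CPM (scaled counts per library, normalised to a common total). Keratinocyte RNA was thus found in every library, while its share beside that of other cells was not measured. A pair of libraries stood apart. WT old 2 held milk genes (caseins, Btn1a1 and others, a list added after its values were seen) at a summed 26920.0 CPM, against 198 CPM in WT old 1 and at most 13.5 CPM in the carcinomas. It also held macrophage and neutrophil markers at 1160.3 CPM, against 32.8 CPM in WT old 1 and 24.03 to 133 CPM in the carcinomas, and Langerhans and dendritic cell markers at 4908 CPM against 274 and 549 to 1130.5 CPM. PKO cSCC 2 had the highest fibroblast marker sum, 1355 CPM, against 321 and 114 CPM in the other carcinomas and 79.5 and 694 CPM in old WT. In that library the matrix gene Fn1 stood at 7523 CPM and the neural crest factor Sox10 at 391.6 CPM. Melanocyte and Schwann markers summed to 508 CPM in PKO cSCC 2 and 216 and 43.2 CPM in PKO cSCC 1 and 3. In WT old 1 and 2 they summed to 127 and 413 CPM, so PKO cSCC 2 was not alone in holding them. The labels do not give sex. Xist, which coats and silences one X chromosome in female cells, stood at 1125 and 764 CPM in old WT and 0.146, 0 and 1.4985 CPM in the carcinomas, and the Y-linked Eif2s3y was at 0 counts in old WT and 25.6, 20.4 and 20 CPM in the carcinomas, at least 186-fold higher when 3 counts are set as the floor for both old WT libraries together. The old WT libraries thus carry the female and the carcinoma libraries the male pattern, and sex and tumour cannot be told apart.

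**Figure D1:**
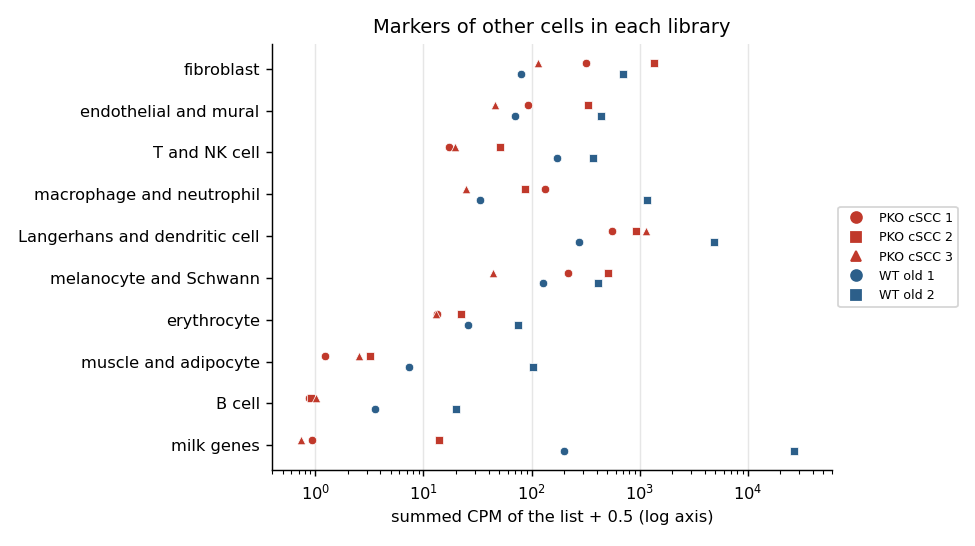
Summed CPM, with 0.5 added and on a log axis, of the marker genes of other cell types and of the milk genes in each of the 5 libraries; red symbols are the 3 carcinomas and blue symbols the 2 old WT libraries. T and NK cell, erythrocyte, muscle and adipocyte and B cell markers were lower in every carcinoma than in both old WT libraries, while WT old 2 stands apart from WT old 1 for milk genes (26920.0 against 198 CPM) and for macrophage and neutrophil markers (1160.3 against 32.8 CPM).

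Trp53 (ENSMUSG00000059552), which encodes p53, checks the labels. It stood at 4.38, 4.24 and 0.865 CPM in PKO cSCC 1, 2 and 3 and at 34.6 and 25.7 CPM in the old WT libraries. Every carcinoma lay below both old WT libraries, as the label reads, with a low level left in each. It fell by this measure (log2 fold change -3.25, SE 1.07, adjusted p = 0.0413). With 1 of the 5 libraries left out the adjusted p reached 0.13. Wwox, the tumour suppressor that PKO mice keep, stood at 13.002, 7.37 and 12.3 CPM against 11.004 and 17.2 CPM, and the groups overlapped (log2 fold change -0.37, SE 0.79, adjusted p = 0.759).

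Of the 18164 genes tested with edgeR's quasi-likelihood test in a fit of all 20 libraries, 3876 (21.3%) passed an adjusted p of 0.05, with 1899 (10.5%) higher and 1977 (10.9%) lower in PKO cSCC. These percentages are the background for the counts of list members below that come from this fit and contrast. With WT young as control, 14.7% of genes rose and 13.9% fell. Each fit with a library left out called a smaller share of genes in either direction, so list counts from those fits have a lower background. A drop in a list's count there is not by itself a trait of that list. Without PKO cSCC 1, 2 or 3, the genes that rose numbered 1391, 1783 and 1712, and those that fell 1396, 1831 and 1511. In 3735 of the called genes (20.6% of those tested) the carcinoma and old WT libraries did not overlap. Irrespective of the call, groups of 3 and 2 libraries did not overlap for 20.6% of all genes in the upward and 23.9% in the downward direction. The median log2 fold change over all genes was -0.09, and the lists below are read against it. The calls rest on the spread of all 20 libraries. The median SD of a gene's log2 CPM was 0.573 in PKO cSCC and 0.465 in old WT, against 0.303 to 0.362 in 3 of the 4 young groups and 0.531 in PKO young, so the tumours varied more than most groups that share the fit. With only the 8 tumour and old WT libraries in the fit, 2 of 16526 genes (0.0121%) passed 0.05 (0.00605% upward and 0.00605% downward), with 4581 at an unadjusted p under 0.05. At an adjusted p of 0.1 that fit called 1956 genes (11.8%), of which 1858 were called in the same direction at 0.05 in the fit of 20. The fit of the 5 libraries alone called 1 gene. DESeq2 called 3028 genes from the 8 libraries and limma voom with quality weights 845 from the 20. Without WT old 1 the count fell to 1603 and without WT old 2 to 1816.

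The 12 genes with the widest gap upward, among those called with at least 10 CPM in every carcinoma, were led by genes of wounded and inflamed epidermis. Krt6a, a keratin of wounded and hyperproliferative epidermis, stood at 1625, 369.9 and 2798 CPM in the carcinomas and 9.77 and 13.1 CPM in old WT (log2 fold change 7.12, SE 1.18, adjusted p = 0.00259). The lowest carcinoma, PKO cSCC 2, still lay far above both old WT libraries. Stfa3, a stefin that inhibits cysteine proteases, stood at 89.8, 47.5 and 223 CPM against 0.411 and 0.228 CPM (log2 fold change 8.53, SE 1.60, adjusted p = 0.00374). S100a8 and S100a9, which encode the subunits of the alarmin calprotectin, stood at 69.8, 15.8 and 83.2 CPM and 121, 20.4 and 128 CPM in the carcinomas, with at most 1.37 CPM of either in old WT. Krt6b and Krt16 belong to the same keratin response as Krt6a and are described below. Cdkn2a, which encodes the tumour suppressors p16 and p19ARF, stood at 38.6, 57.1 and 59.2 CPM against 0.164 and 1.67 CPM (log2 fold change 5.79, SE 1.57, adjusted p = 0.0182). Slc16a3, the lactate exporter MCT4, stood at 97.3, 41.8 and 98.04 CPM against 2.55 and 1.44 CPM (log2 fold change 5.31, SE 1.10, adjusted p = 0.00539). Has2, a hyaluronan synthase, was 21.8, 88.2 and 17.003 CPM against 0.903 and 0.152 CPM, highest in PKO cSCC 2. Gpx2, a glutathione peroxidase of epithelia, stood at 11.8, 73.1 and 19.7 CPM against 0.411 and 0.608 CPM, again highest in PKO cSCC 2. The steroid and oxysterol hydroxylase gene Cyp7b1 and the surface protein gene Ly6a (Sca-1) completed the set, with log2 fold changes of 6.22 (adjusted p = 0.0335) and 3.90 (adjusted p = 0.00468). Against WT young epidermis S100a8 (log2 fold change 2.31, adjusted p = 0.193), S100a9 (1.20, adjusted p = 0.521) and Ly6a (1.34, adjusted p = 0.0986) did not pass. WT young 1 held them at 30.1, 108 and 73.8 CPM. Every other gene of the set rose against WT young too. Only Stfa3, Krt6a and Gpx2 stayed past the threshold whichever 1 of the 5 libraries was left out.

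The 12 genes with the widest gap downward, with at least 10 CPM in both old WT libraries, included keratinocyte genes. Krt77, a suprabasal keratin, stood at 11.3, 10.1 and 20.3 CPM in the carcinomas and 4477 and 1247 CPM in old WT (log2 fold change -7.68, SE 1.36, adjusted p = 0.00317). No other gene of the set was as abundant in both old WT libraries. Skint5 and Skint6, members of a family of keratinocyte surface proteins known from the selection of epidermal gamma-delta T cells, stood at most at 0.406 CPM in a carcinoma, against 58.1 and 13.5 CPM and 18.5 and 16.4 CPM in old WT. Cd55, an inhibitor of complement on the cell surface, stood at 1.02, 1.39 and 0.692 CPM against 86.6 and 37.9 CPM (log2 fold change -5.90, SE 0.74, adjusted p = 0.00147). Gldc, an enzyme of glycine cleavage, stood at 0.365, 0.058 and 0.346 CPM against 26.2 and 31.9 CPM (log2 fold change -6.80, SE 1.01, adjusted p = 0.00202). Cyp2g1, a cytochrome P450, had 3 counts in the carcinomas together, against 23.6 and 25.6 CPM in old WT, a ratio of pooled levels of 396 (95% exact interval 135 to 1.93e+03, counting error only). Against WT young epidermis Cyp2g1 (log2 fold change -1.02, adjusted p = 0.76), Skint5 (-2.15, adjusted p = 0.176) and Skint6 (-2.45, adjusted p = 0.162) did not pass. Krt77 (-4.36, adjusted p = 0.0124), Cd55 (-3.96, adjusted p = 0.00168) and Gldc (-3.23, adjusted p = 0.0157) fell there too.

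Other genes of the downward set belong to lymphocytes and to milk. The T cell receptor chains Cd3g and Cd3e stood at 0.877, 0.522 and 0.461 CPM and 0.877, 1.16 and 0.115 CPM in the carcinomas, against 36.95 and 77.97 CPM and 32.2 and 59.5 CPM in old WT. Cd7, a receptor of T and NK cells, had 1 count in the carcinomas together against 11.6 and 39.6 CPM in old WT, and the cytotoxic granule gene Prf1 stood at 12.48 and 22.9 CPM in old WT and at most 0.219 CPM in a carcinoma. The casein gene Csn3 and the milk fat gene Btn1a1 stood at 29.6 and 2197 CPM and 11.5 and 971 CPM in old WT, so WT old 2 holds most of their level there, and at no more than 0.219 CPM in a carcinoma. In bulk samples fewer cells of a type and less RNA per cell cannot be told apart, and these genes are read beside the T cell and milk marker sums, whose part in them was not tested.

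**Figure D2:**
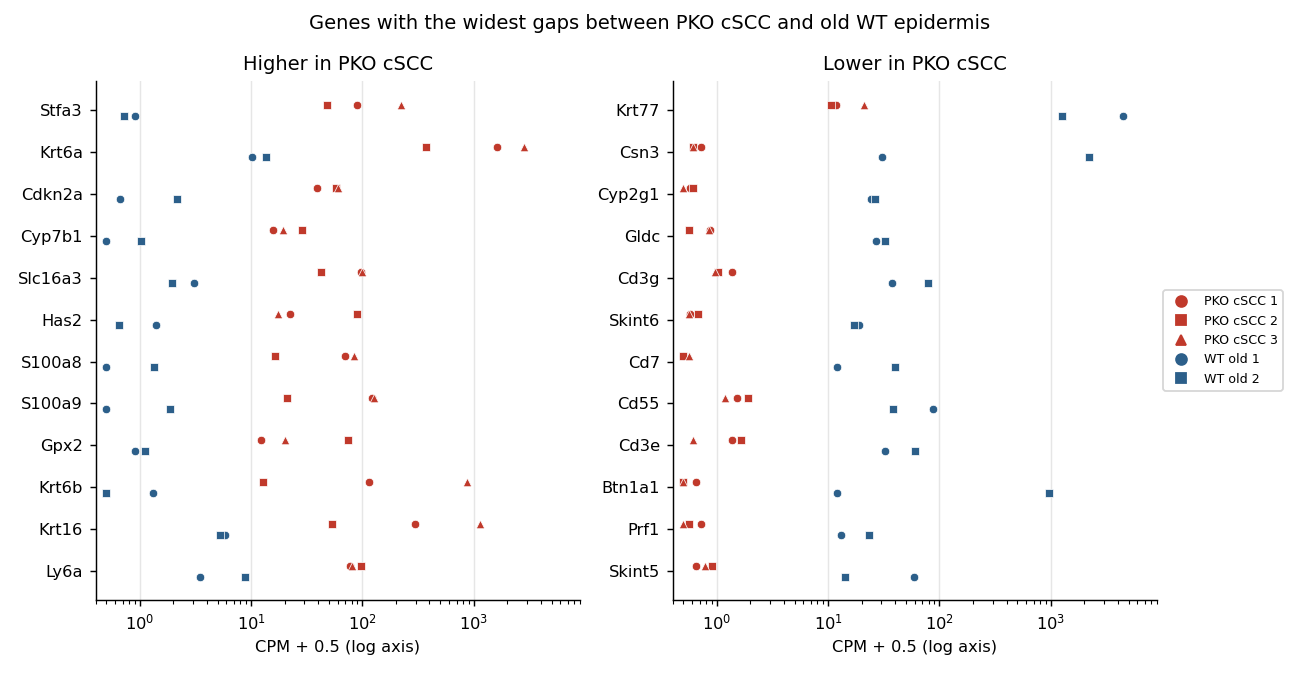
CPM with 0.5 added, on a log axis, of the 12 genes with the widest gap upward (left) and downward (right) in each of the 5 libraries; red symbols are carcinomas and blue symbols old WT. The groups do not overlap for any of the 24 genes, which the naming rule required, and for Csn3 and Btn1a1 the old WT libraries lie far from each other (29.6 against 2197 CPM and 11.5 against 971 CPM).

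Most proliferation genes rose. All 45 listed cell cycle genes were tested and had a positive log2 fold change (median 2.21), and 35 rose while none fell, against 10.5% of all genes that rose. The 4 with the smallest p act in mitosis. Ube2c, which with the anaphase-promoting complex marks cyclins for destruction, stood at 43.2, 12.9 and 31.4 CPM in the carcinomas and 1.56 and 1.29 CPM in old WT (log2 fold change 4.35, SE 0.67, adjusted p = 0.0022). Birc5, survivin of the chromosomal passenger complex, stood at 38.7, 13.1 and 36.1 CPM against 1.64 and 1.90 CPM (log2 fold change 4.04, SE 0.62, adjusted p = 0.0022). Cdc20, an activator of the anaphase-promoting complex, stood at 53.9, 19.9 and 41.2 CPM against 4.11 and 2.36 CPM. The kinesin gene Kif20a stood at 57.8, 19.3 and 36.6 CPM against 3.28 and 4.10 CPM. In all 4, PKO cSCC 1 was the highest and PKO cSCC 2 the lowest carcinoma, and none overlapped with old WT. By role, 11 of 12 genes of the mitotic machinery, 11 of 13 cyclins and kinases, 10 of 15 licensing and S phase genes and 3 of 5 transcription factors rose. The median fold change was larger for cyclins and kinases (3.06) and mitotic genes (2.71) than for licensing and S phase genes (1.67), a difference that was not tested. Mki67, the proliferation marker Ki-67, stood at 466, 98.1 and 247 CPM against 101 and 60.2 CPM (log2 fold change 1.74, SE 0.54, adjusted p = 0.0337), and its groups overlapped. At an adjusted p of 0.1 in the fit of 8 libraries 27 members rose, against 6.28% of genes in that fit. The count was 16 without WT old 1 and 13 without WT old 2, and 20 rose and 1 fell when WT young epidermis, in which the list summed to 535 to 1156 CPM against 606 and 389 CPM in old WT, was the control.

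Late cell cycle genes are known for 2 promoter elements. One is the CCAAT box, bound by NF-Y. The other is the CHR, with the letters TTTGAA, through which the DREAM complex holds such genes down in resting cells and through which p53 is known to act by way of p21. The promoter stretches of 5 cell cycle genes are shown so that these elements, or their absence from the window, can be read beside the values. They have the smallest p among the list members that the promoter table holds, with genes on 1 chromosome left out of the choice. Kif20a, named above, is not among them. Each is 100 bases, positions -110 to -11 from the RefSeq start (GRCm38.p6), 5′ to 3′ on the gene's strand, with CCAAT boxes (CCAAT or ATTGG) and CHR letters (TTTGAA or TTCAAA) in capitals.
Ube2c (chr2:164769819-164769918, plus strand): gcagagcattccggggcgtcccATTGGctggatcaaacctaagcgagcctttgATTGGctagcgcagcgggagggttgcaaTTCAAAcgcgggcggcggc
Birc5 (chr11:117849127-117849226, plus strand): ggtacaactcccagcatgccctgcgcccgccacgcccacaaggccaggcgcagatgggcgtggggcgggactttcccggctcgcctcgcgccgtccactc
Cdc20 (chr4:118437354-118437453, minus strand): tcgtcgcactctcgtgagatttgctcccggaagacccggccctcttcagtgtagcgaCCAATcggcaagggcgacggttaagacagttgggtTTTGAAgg
Ccnb2 (chr9:70421565-70421664, minus strand): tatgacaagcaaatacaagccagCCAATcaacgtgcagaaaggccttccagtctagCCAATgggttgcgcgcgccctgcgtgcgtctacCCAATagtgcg
Top2a (chr11:99024200-99024299, minus strand): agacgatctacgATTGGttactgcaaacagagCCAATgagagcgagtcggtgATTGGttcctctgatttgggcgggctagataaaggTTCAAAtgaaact
Ube2c holds 2 CCAAT boxes and 1 CHR, Cdc20 1 of each, Ccnb2 3 CCAAT boxes and Top2a 3 CCAAT boxes and 1 CHR, while in Birc5 neither string occurs in this window. Over the 250 bases before the start, and on both strands, 29 of the 36 cell cycle genes in the table (80.6%) held CCAAT, against 39.8% of the 12509 tested genes in the table. The CHR letters were in 10 of the 36 (27.8%), against 14.1%. Among all genes that rose, 41% held CCAAT and 12.6% the CHR letters, and among all that fell 40% and 15.5%. A match of letters is a description and says nothing of binding in these cells.

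Genes of the DNA damage response rose in part. Of 22 tested, 7 rose and none fell, with a median log2 fold change of 1.25. H2afx, the histone variant phosphorylated at DNA breaks, stood at 108, 31.9 and 46.2 CPM against 11.004 and 10.4 CPM (log2 fold change 2.53, SE 0.51, adjusted p = 0.00478). Rad54l, a translocase of homologous recombination, and Fancd2 of the Fanconi pathway rose with log2 fold changes of 2.02 (adjusted p = 0.0221) and 1.73 (adjusted p = 0.0195). The kinases that open the response did not pass, Atm at -0.35 (adjusted p = 0.354) and Atr at -0.34 (adjusted p = 0.332). The count was 1 when either old WT library was left out.

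Most glycolysis genes rose. Of 21 genes tested 15 rose and none fell (median 1.96), including 12 of 15 enzymes and all 3 genes of glucose uptake and lactate export. Tpi1, triosephosphate isomerase, stood at 190.1, 224 and 277 CPM in the carcinomas and 44.3 and 43.7 CPM in old WT (log2 fold change 2.39, SE 0.29, adjusted p = 0.0014). Eno1, enolase, stood at 725, 716 and 794 CPM against 149 and 186 CPM (log2 fold change 2.15, SE 0.28, adjusted p = 0.00147), and Pgk1 at 272, 288 and 259 CPM against 37.3 and 48.4 CPM (log2 fold change 2.67, SE 0.37, adjusted p = 0.00178). Every carcinoma lay above both old WT libraries for these 3 enzymes, which were named for their small p. Gapdh, often used as a constant reference, stood at 1101, 1703 and 1239 CPM against 139.5 and 267 CPM (log2 fold change 2.73, SE 0.39, adjusted p = 0.00192). The glucose transporter gene Slc2a1 stood at 268, 207 and 375 CPM against 46.8 and 38.1 CPM (log2 fold change 2.74, SE 0.51, adjusted p = 0.00355). The lactate dehydrogenase gene Ldha stood at 647, 499 and 356 CPM against 84.2 and 174 CPM (log2 fold change 1.96, SE 0.40, adjusted p = 0.00483). The 3 regulators on the list did not pass, among them Pfkfb3 at -0.28 (adjusted p = 0.717). Leaving out any of the 5 libraries left 11 to 15 members that rose, and with WT young as control 18 rose.

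Hypoxia response genes had 7 of 16 members that rose and none that fell (median 1.78). Hif1a, which encodes the oxygen-regulated subunit of HIF-1, stood at 391, 347 and 672 CPM against 112 and 64.3 CPM (log2 fold change 2.42, SE 0.48, adjusted p = 0.00461). P4ha1, a collagen prolyl hydroxylase, Car12, a carbonic anhydrase, and Egln1, a prolyl hydroxylase that marks HIF for destruction, rose with log2 fold changes of 1.76 (adjusted p = 0.00238), 2.80 (adjusted p = 0.00483) and 1.81 (adjusted p = 0.00504). Vegfa, a widely used hypoxia target, stood at 77.4, 117 and 168 CPM against 26.03 and 57.5 CPM and did not pass (log2 fold change 1.53, SE 0.62, adjusted p = 0.0885). Without WT old 2 the count was 3.

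Nuclear genes of oxidative phosphorylation moved in the same direction as glycolysis. All 22 tested had a positive log2 fold change, 14 rose and none fell, and the changes were smaller (median 0.98). Cycs, cytochrome c, stood at 82.5, 43.6 and 58.9 CPM against 24.1 and 21.1 CPM (log2 fold change 1.45, SE 0.28, adjusted p = 0.00389). The complex I subunit genes Ndufa9 and Ndufb5 and the ATP synthase gene Atp5a1 rose with 1.88 (adjusted p = 0.00436), 1.11 (adjusted p = 0.00514) and 1.07 (adjusted p = 0.00688). Succinate dehydrogenase was divided, with Sdhb at 1.08 (adjusted p = 0.0114) and Sdha not past the threshold at 0.41 (adjusted p = 0.193). The count was 4 without WT old 1 and 17 with WT young as control.

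**Figure D3:**
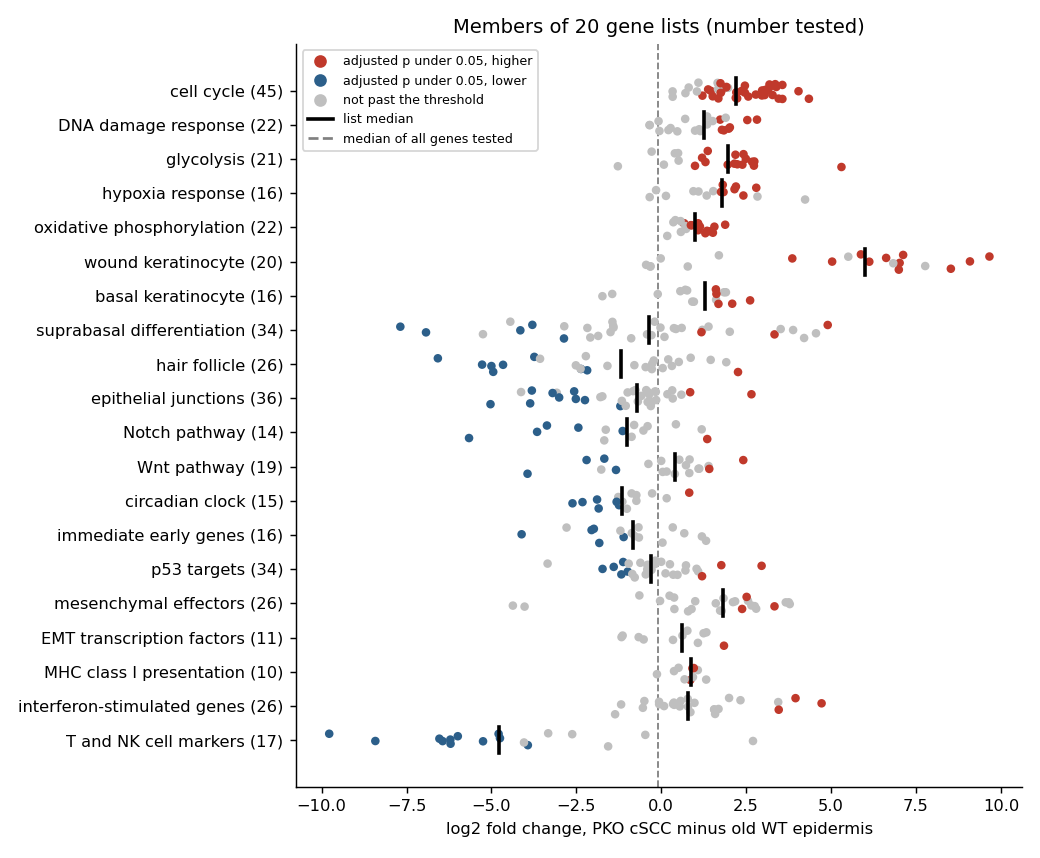
Log2 fold change (PKO cSCC minus old WT) of each tested member of 20 gene lists, with the number tested in brackets; red and blue points passed an adjusted p of 0.05, grey points did not, black bars are list medians and the dashed line is the median of all genes tested (-0.09). All cell cycle and oxidative phosphorylation genes and 19 of 21 glycolysis genes lie above 0, wound keratinocyte genes reach the highest values, and T and NK cell markers lie below 0 with a median of -4.79.

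Wound keratinocyte genes had 11 of 20 tested members that rose and none that fell, with a median log2 fold change of 6.002. All 4 keratins of the list rose. Krt6b, a close copy of Krt6a whose reads are shared with it by estimation, stood at 114, 12.4 and 870.1 CPM against 0.821 and 0 CPM (log2 fold change 9.66, SE 2.14, adjusted p = 0.00721), and Krt16 at 296, 53.1 and 1138 CPM against 5.34 and 4.71 CPM (log2 fold change 6.62, SE 1.51, adjusted p = 0.00842). Krt17 was the one keratin of the 4 with over 100 CPM in both old WT libraries, at 6291, 727 and 1870.1 CPM against 278 and 131 CPM (log2 fold change 3.86, SE 0.80, adjusted p = 0.00538). PKO cSCC 2 was the lowest carcinoma for each of the 4. The small proline-rich genes, precursors of the cornified envelope, had 4 of 8 members that rose at low levels, with sums of 10.5 to 112 CPM in the carcinomas and 5.40 and 11.1 CPM in old WT. Lcn2, an antimicrobial siderophore binder, overlapped between groups at 57.3, 1197 and 64.8 CPM and 23.5 and 1071 CPM. The list's count was 5 without WT old 1 and 2 without WT old 2.

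Basal keratinocyte genes had 5 of 16 members that rose and none that fell (median 1.284). Krt14, the keratin whose promoter drives Cre here, stood at 4324, 3769.6 and 13053 CPM against 1789 and 511 CPM (log2 fold change 2.62, SE 0.75, adjusted p = 0.0235), and its partner Krt5 at 5979.7, 3022 and 9642 CPM against 2579.6 and 744 CPM, above old WT in each carcinoma but not past the threshold (log2 fold change 1.90, SE 0.69, adjusted p = 0.0587). Cdh3, P-cadherin of basal cells, stood at 186, 93.8 and 257 CPM against 42.6 and 41.6 CPM (log2 fold change 2.09, SE 0.49, adjusted p = 0.00903). The integrin gene Itgb1 and the laminin-332 gene Lamb3 rose with 1.61 (adjusted p = 0.0185) and 1.62 (adjusted p = 0.0408). Trp63, the master factor of squamous epithelium, overlapped between groups (log2 fold change 0.71, SE 0.62, adjusted p = 0.423), as did Krt15, a keratin of resting basal and follicle stem cells, at 131, 384 and 1359 CPM against 3216 and 942 CPM. The list's count was 1 when either old WT library was left out and 12 with WT young as control.

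Suprabasal differentiation genes went both ways, with 3 of 34 that rose and 5 that fell, and a median of -0.35. Krt10, the main suprabasal keratin, stood at 108, 25.3 and 453 CPM in the carcinomas and 5185 and 1754 CPM in old WT (log2 fold change -4.15, SE 1.29, adjusted p = 0.0329). Its partner Krt1 stood at 307, 34.8 and 929 CPM against 1682 and 705 CPM and the groups overlapped (log2 fold change -1.49, SE 1.13, adjusted p = 0.348). Dsg1a, a desmosomal cadherin of upper layers, stood at 24.5, 9.81 and 122 CPM against 1111 and 334 CPM (log2 fold change -3.80, SE 0.93, adjusted p = 0.0117). Against these, the protease genes Klk10 and Klk8 and the transglutaminase gene Tgm3 rose, Tgm3 from 6.16 and 6.99 CPM to 47.4, 85.8 and 457 CPM (log2 fold change 4.90, SE 1.07, adjusted p = 0.00688) and Klk10 with 3.33 (adjusted p = 0.00577). Cst6, which encodes the cystatin that curbs cathepsins and through them transglutaminase 3, stood at 2.63, 2.84 and 7.78 CPM against 39.3 and 25.4 CPM (log2 fold change -2.87, SE 0.69, adjusted p = 0.0104). Inhibitor and enzyme of this pathway lay on opposite sides of 0. Without WT old 1, 2 members fell, and without WT old 2 none rose. With WT young as control 4 members rose and 1 fell, and Krt10 stood at -0.99 (adjusted p = 0.524).

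Ceramide and lipid genes of the skin barrier had 2 of 13 members that fell and none that rose, with 1 that fell without PKO cSCC 1 or WT old 1. Sptlc3, a subunit of serine palmitoyltransferase, stood at 0.073, 0.638 and 0.922 CPM against 39.5 and 15.96 CPM (log2 fold change -5.61, SE 0.97, adjusted p = 0.00294), and Acer1, an alkaline ceramidase, at 0.877, 0.232 and 3.05 CPM against 40.2 and 13.5 CPM (log2 fold change -4.25, SE 1.12, adjusted p = 0.0158). Among sebaceous and sterol genes 3 of 28 rose and 2 fell, and none rose without WT old 2. Those that rose make cholesterol, among them Sqle at 1.70 (adjusted p = 0.00877) and Idi1 at 1.53 (adjusted p = 0.0351). The 2 that fell are sebaceous, the melanocortin receptor gene Mc5r at 0.438, 0.348 and 0.749 CPM against 14.8 and 5.09 CPM and the desaturase gene Scd1 at 143, 156 and 117 CPM against 395 and 1844 CPM, where WT old 2 is the high library.

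Hair follicle genes had 8 of 26 members that fell and 1 that rose (median -1.19). The keratins and root sheath genes accounted for 5 of the 8, with none of 10 above 0 and a median of -4.11. Krt71, Krt25 and Krt28, keratins of the inner root sheath, stood at 0.73, 1.33 and 0.461, 0.95, 0.348 and 0.922 and 0.73, 0.116 and 0 CPM in the carcinomas. In old WT they stood at 21.8 and 32.8, 14.5 and 23.03 and 7.39 and 13.5 CPM, and their log2 fold changes were -5.00 (adjusted p = 0.00736), -4.66 (adjusted p = 0.00623) and -5.28 (adjusted p = 0.0137). Gata3, a factor of the inner root sheath and of epidermal differentiation, stood at 70.4, 62.1 and 101 CPM against 509 and 197 CPM (log2 fold change -2.18, SE 0.42, adjusted p = 0.004). Tbx1, a factor of follicle stem cells, was the one that rose (log2 fold change 2.26, SE 0.64, adjusted p = 0.0226). The count that fell was 4 when either old WT library was left out and 13 with WT young as control. Simple epithelial keratins, which squamous carcinomas are known to switch on at advanced stages, did not rise, and 2 of 5 fell (5 of 5 without PKO cSCC 2, none with any other of the 5 libraries left out). Krt19 stood at 0.219, 8.76 and 0 CPM against 40.6 and 173 CPM (log2 fold change -5.14, SE 1.63, adjusted p = 0.0363), and Krt8 at 0, 88.7 and 0.692 CPM against 51.3 and 259 CPM did not pass (log2 fold change -2.38, SE 1.63, adjusted p = 0.3). These keratins also mark mammary epithelium, and Krt19 and Krt8 were higher in WT old 2, the library with the milk genes, than in WT old 1. Krt23, the other keratin that fell, stood at 6.98 and 4.33 CPM in the old WT libraries, lower in WT old 2. The part of those cells in the fall was not tested.

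**Figure D4:**
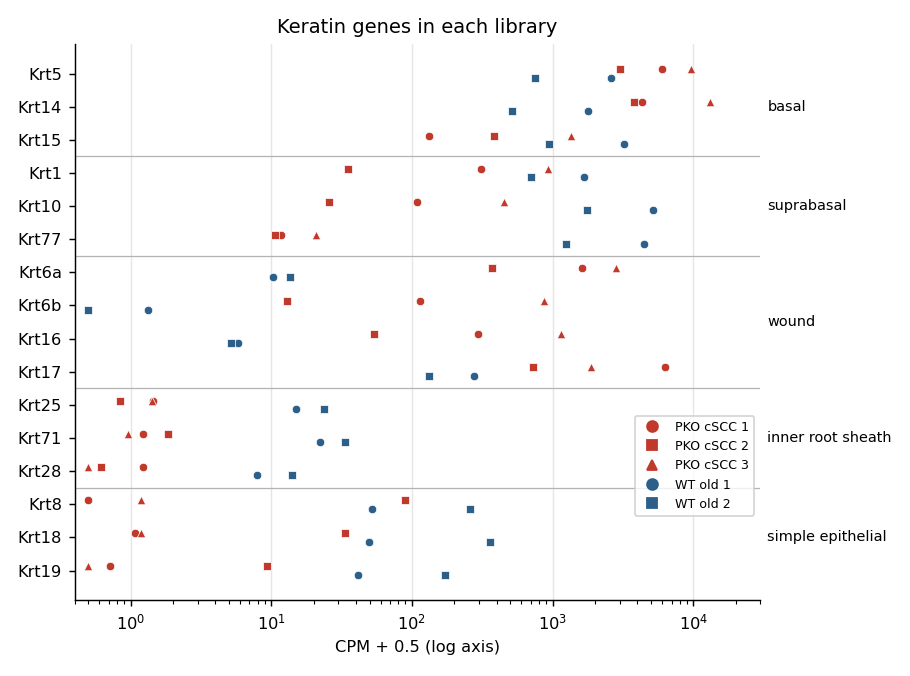
CPM with 0.5 added, on a log axis, of 16 keratin genes in each library, grouped by the layer or structure they mark; red symbols are the 3 carcinomas and blue symbols the 2 old WT libraries. Wound keratins lie higher and Krt10, Krt77 and inner root sheath keratins lower in every carcinoma than in both old WT libraries, Krt1 and Krt15 overlap, and among the carcinomas PKO cSCC 2 holds the most Krt8 (88.7 CPM).

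Junction genes fell in part. Of 36 tested 9 fell and 2 rose (median -0.73), with 6 to 10 that fell when 1 library was left out, and 7 of the 9 belong to tight and adherens junctions. Cgn, the tight junction adaptor cingulin, stood at 1.46, 5.98 and 1.90 CPM in the carcinomas and 73.7 and 131 CPM in old WT (log2 fold change -5.03, SE 0.88, adjusted p = 0.00308). Ocln, occludin, stood at 1.17, 2.03 and 5.53 CPM against 25.9 and 21.3 CPM (log2 fold change -3.01, SE 0.69, adjusted p = 0.00867). Tjp1 and Tjp3, which encode the scaffold proteins ZO-1 and ZO-3, stood at 70.998, 44.7 and 54.3 CPM and 0.584, 6.09 and 5.19 CPM, against 134 and 128 CPM and 55.02 and 60.9 CPM in old WT. Cdh1, E-cadherin, did not pass (log2 fold change -0.38, SE 0.32, adjusted p = 0.394), while the desmosomal cadherin gene Dsg3, which marks basal layers, rose (log2 fold change 2.66, SE 0.72, adjusted p = 0.0186). The calls in this list depended on the control. Against WT young epidermis 10 members rose and 1 fell, and the changes were -1.55 (adjusted p = 0.127) for Cgn and -1.12 (adjusted p = 0.186) for Ocln, while Tjp1 still fell at -0.94 (adjusted p = 0.0084). Those contrasts share the carcinoma libraries, so their values are given side by side only.

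Transcription factors that drive the epithelial to mesenchymal transition (EMT), the process named in the title of the series, had 1 of 11 members past the threshold, and none without WT old 2. Snai2 (Slug), which is also active in wound keratinocytes, stood at 57.05, 54.4 and 73.9 CPM against 23.8 and 10.6 CPM (log2 fold change 1.85, SE 0.47, adjusted p = 0.0145). Zeb1 stood at 1.02, 17.3 and 0.403 CPM against 6.57 and 13.3 CPM and Twist1 at no more than 4.29 CPM in any of the 5 libraries. Mesenchymal effector genes had 3 of 26 members that rose and none that fell (median 1.81). Without WT old 1, 1 rose, and without PKO cSCC 2 as many as 3 rose and 3 fell, with a median of -0.37. Cd44, the hyaluronan receptor, stood at 826, 307 and 509 CPM against 114 and 96.6 CPM (log2 fold change 2.38, SE 0.39, adjusted p = 0.00257). The matrix gene Postn stood at 406, 1289 and 909.7 CPM against 50.4 and 122 CPM (log2 fold change 3.33, SE 0.77, adjusted p = 0.00862). For Fn1, Vim and Sparc PKO cSCC 2 lay far above the other carcinomas. Fn1 stood at 57.3, 7523 and 4.44 CPM against 30.96 and 368 CPM, and its log2 fold change of 3.67 (adjusted p = 0.225) turned to -2.69 without that library. Vim, vimentin, stood at 93.6, 1053 and 9.16 CPM against 67.1 and 318 CPM, and Sparc at 45.4, 2323 and 29.6 CPM against 16.9 and 102 CPM. Neither passed. The fibroblast markers Col1a1 and Dcn stood at 58.6, 144 and 12.51 CPM and 1.31, 389.8 and 0.346 CPM in the carcinomas, highest in the same library, and the part of fibroblasts in these levels was not tested. Among 21 protease and invasion genes 2 rose. Itgb6, the epithelial integrin of invasive margins, stood at 58.3, 10.3 and 14.3 CPM against 1.48 and 7.14 CPM. The metalloproteinase gene Mmp10 stood at 13.6, 2.49 and 1.27 CPM with no count in old WT. Both were highest in PKO cSCC 1, and neither passed without PKO cSCC 1 or without WT old 1.

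Receptors of the Notch pathway, which drives keratinocytes out of the basal layer and acts as a tumour suppressor in skin, fell. Notch3 stood at 7.60, 12.6 and 10.7 CPM in the carcinomas and 160.0 and 100.4 CPM in old WT (log2 fold change -3.66, SE 0.55, adjusted p = 0.00202). Notch1 stood at 51.1, 50.5 and 88.5 CPM against 368 and 321 CPM (log2 fold change -2.44, SE 0.38, adjusted p = 0.0022), and Notch2 at 47.3, 66.5 and 111 CPM against 179.7 and 149.9 CPM (log2 fold change -1.14, SE 0.39, adjusted p = 0.0479). The ligand gene Jag1 moved the other way, at 229, 84.7 and 149 CPM against 76.9 and 44.003 CPM (log2 fold change 1.35, SE 0.44, adjusted p = 0.0393). Of the 14 pathway genes tested 5 fell and 1 rose (median -1.006). The count that fell was 3 without PKO cSCC 1, PKO cSCC 3 or WT old 2, and Jag1 passed only in the fit without PKO cSCC 2 among those with 1 library left out. Hes1, the main target in keratinocytes, overlapped between the groups (log2 fold change -0.80, SE 0.54, adjusted p = 0.291), while the other members that fell, Dll4 and Hey1, had no more than 0.0821 and 1.72 CPM in WT old 1 and are also genes of endothelium. Notch3 marks mural cells too. Endothelial and mural markers summed to 45.4 to 331 CPM in the carcinomas and 70.2 and 440 CPM in old WT, and the groups overlapped. With WT young as control 5 fell and 2 rose, and Notch3 stood at -1.78 (adjusted p = 0.0148) and Notch1 at -2.19 (adjusted p = 0.00138).

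Wnt pathway genes had 4 of 19 members that fell and 2 that rose, and 1 that fell without WT old 1. Feedback targets were among those that fell, Axin2 at 17.1, 16.7 and 25.5 CPM against 96.5 and 30.2 CPM (log2 fold change -1.68, SE 0.36, adjusted p = 0.00651), Rnf43, a ubiquitin ligase for Wnt receptors, at -1.33 (adjusted p = 0.00513), and Nkd1 at -3.94 (adjusted p = 0.00488). The ligands divided, with Wnt10a at 2.41 (adjusted p = 0.0157) and Wnt10b at -2.20 (adjusted p = 0.0115), and Ctnnb1, which encodes beta-catenin, rose (log2 fold change 0.85, SE 0.23, adjusted p = 0.0183). Among ligands of the EGF receptor, Tgfa stood at 24.5, 21.6 and 17.8 CPM against 3.70 and 2.43 CPM (log2 fold change 2.79, SE 0.61, adjusted p = 0.00678), while Egf itself fell from 2.87 and 2.51 CPM to 0.073, 0.58 and 0.749 CPM (log2 fold change -2.49, SE 0.70, adjusted p = 0.0214). Ereg had 1 count in old WT and 0.584, 4.58 and 3.92 CPM in the carcinomas (log2 fold change 5.98, SE 1.72, adjusted p = 0.0238). None of the 11 ligands and receptors passed without WT old 2. The receptor gene Egfr did not pass (log2 fold change -0.50, SE 0.37, adjusted p = 0.34). TGF-beta pathway genes had 1 of 15 that rose and 2 that fell, the co-receptor gene Tgfbr3 at -1.70 (adjusted p = 0.0135) and Tgfb3, whose level in WT old 2 (28.8 and 435 CPM in the old WT libraries) sets the difference. Without WT old 2 none fell, and without WT old 1 none rose and 3 fell. For Tgfbr3 the adjusted p reached 0.072 with 1 library left out. None of 14 YAP and TAZ targets passed at 0.05, with 2 of them at an unadjusted p under 0.05, and with WT young as control 6 rose and 1 fell.

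p53 target genes did not move together. Of 34 tested 5 fell and 3 rose, and the median was -0.30, against -0.09 for all genes. All 9 genes of arrest and feedback had a negative log2 fold change (median -0.34), and 3 of them fell. The other roles divided, with 6 genes above and 6 below 0 for apoptosis and 5 above and 8 below 0 for repair and metabolism. Mdm2, the ubiquitin ligase that p53 induces against itself, stood at 23.7, 19.03 and 26.3 CPM in the carcinomas and 46.9 and 44.5 CPM in old WT (log2 fold change -0.99, SE 0.32, adjusted p = 0.037). Trp53inp1, a co-activator of p53 dependent death, fell, at 38.9, 26.2 and 25.5 CPM against 70.6 and 60.95 CPM (log2 fold change -1.12, SE 0.31, adjusted p = 0.0213), as did the death gene Bbc3 (Puma) (log2 fold change -1.18, SE 0.38, adjusted p = 0.0373). Cdkn1a, which encodes the cell cycle inhibitor p21, stood at 25.9, 39.6 and 36.1 CPM against 87.1 and 29.3 CPM. WT old 1 was high and WT old 2 lay among the carcinomas, so the groups overlapped (log2 fold change -0.78, SE 0.54, adjusted p = 0.304). Pmaip1 (Noxa), another death gene of the pathway, rose, at 20.5, 14.3 and 22.5 CPM against 5.67 and 5.55 CPM (log2 fold change 1.77, SE 0.46, adjusted p = 0.0153), as did the adenylate kinase gene Ak1 (log2 fold change 2.95, SE 0.50, adjusted p = 0.00284) and Ddit4, a target shared with hypoxia (log2 fold change 1.20, SE 0.39, adjusted p = 0.0401). No more than 3 members moved in either direction with any 1 of the 5 libraries left out.

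**Figure D5:**
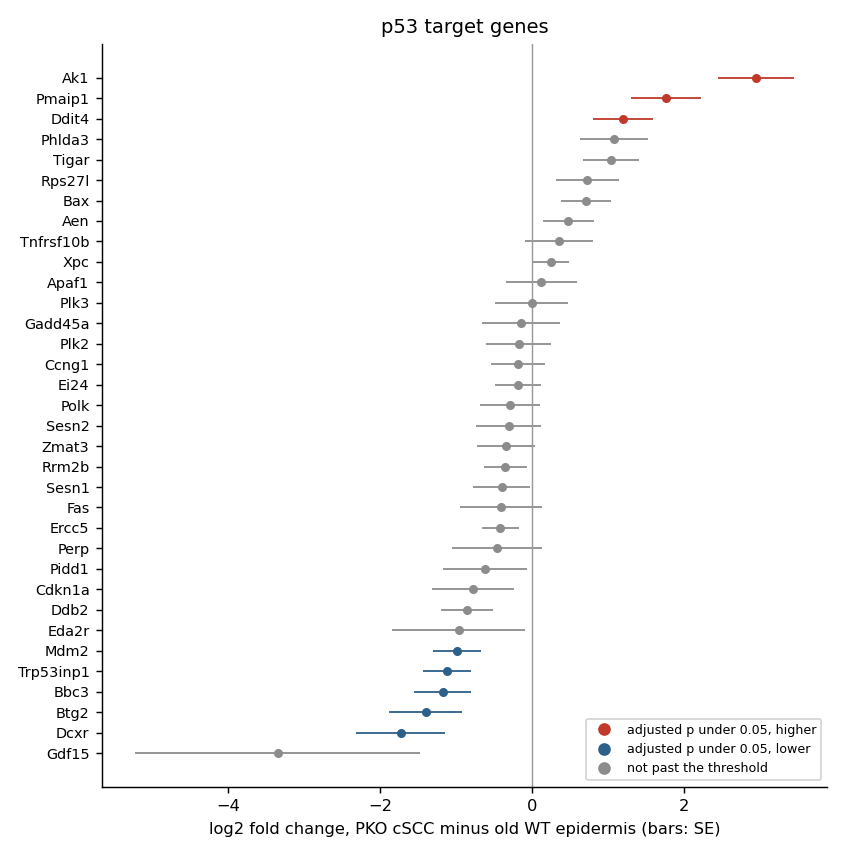
Log2 fold change (PKO cSCC minus old WT) with its standard error for the 34 p53 target genes tested, in order of the change; red and blue points passed an adjusted p of 0.05 and grey points did not. Members lie on both sides of 0, with Ak1 (2.95) and Pmaip1 (1.77) at the upper end and Mdm2 (-0.99) among the 5 that fell.

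Among carcinoma driver and stemness genes 3 of 17 rose and 1 fell, and none passed without WT old 2. Those that rose included Cdkn2a, described above, and Pthlh, the hormone of tumour hypercalcaemia, though PKO cSCC 3 lay at the level of old WT (15.7, 17.9 and 0.634 CPM against 1.40 and 0.608 CPM). Myc stood at 63.5, 133 and 96.1 CPM against 70.7 and 28.7 CPM and did not pass (log2 fold change 0.97, SE 0.51, adjusted p = 0.174), and Prom1, which encodes the surface antigen CD133, fell (log2 fold change -3.49, SE 0.75, adjusted p = 0.00607).

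T and NK cell markers had more members that fell than any other list. Of 17 tested 11 fell and none rose (median -4.79), with summed levels of 16.7 to 50.9 CPM in the carcinomas against 172 and 369 CPM in old WT. Trdc, the constant chain of the gamma-delta T cell receptor, stood at 0.73, 0.406 and 0.115 CPM against 18.1 and 53.5 CPM (log2 fold change -6.44, SE 1.51, adjusted p = 0.00949). Xcl1 was at 0 counts in all 3 carcinomas. All samples had been sorted for tdTomato. The sum was higher still in WT young epidermis, at 2105 to 2656 CPM. In DKO cSCC it was 30.8 to 93.6 CPM. With any 1 of the 5 libraries left out 6 to 10 members fell, 6 of them without WT old 2. Macrophage and neutrophil markers had no member past the threshold of 14 tested in edgeR, with 4 at an unadjusted p under 0.05. Of erythrocyte markers 3 of 8 fell, all globins, of muscle and adipocyte markers 5 of 13 and of B cell markers 1 of 6, and most of their summed level in old WT came from WT old 2. Without WT old 2 none of these markers fell, and none of the erythrocyte markers fell without PKO cSCC 1. Of the B cell markers 1 fell without WT old 1 and none with any other of the 5 libraries left out.

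Antigen presentation by MHC class I had 3 of 10 members that rose and none that fell. B2m, the invariant chain, stood at 505, 616 and 516 CPM against 288 and 291 CPM (log2 fold change 0.92, SE 0.30, adjusted p = 0.0424), and Psmb8, an immunoproteasome subunit, and the heavy chain gene H2-K1 rose with 0.96 (adjusted p = 0.0428) and 0.86 (adjusted p = 0.043). None passed without PKO cSCC 3, WT old 1 or WT old 2. Interferon-stimulated genes had 3 of 26 that rose and none that fell. Xaf1 stood at 27.03, 30.8 and 21.8 CPM against 2.38 and 2.43 CPM (log2 fold change 3.46, SE 0.81, adjusted p = 0.00926), Oas1a, a sensor of double-stranded RNA, at 14.2, 7.02 and 10.2 CPM against 0.164 and 0.608 CPM (log2 fold change 4.72, SE 1.13, adjusted p = 0.0107), while Ifi27l2a rose with 3.95 (adjusted p = 0.0248). None of these genes passed without WT old 1. Against WT young epidermis none rose and 8 fell, with Xaf1 at 1.48 (adjusted p = 0.0824). The WT young libraries lay far apart, with list sums from 203 to 2169.5 CPM, against 265 to 330 CPM in the carcinomas. Xaf1 stood at 22.1 CPM in WT young 1 and at 4.49 and 1.81 CPM in WT young 2 and 3. Cytokine and chemokine genes had 2 of 29 that rose, Ccl20 and Il1f8, both under 2.5 CPM and neither past the threshold without WT old 1 or WT old 2, and 1 that fell, Cxcl12, the chemokine that holds CXCR4-positive cells, at 2.26, 4.41 and 3.92 CPM against 13.5 and 25.6 CPM (log2 fold change -2.46, SE 0.52, adjusted p = 0.00561).

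Circadian clock genes had 6 of 15 members that fell and 1 that rose (median -1.15). Per2, a repressor of the clock, stood at 4.02, 21.4 and 12.9 CPM against 49.8 and 107 CPM (log2 fold change -2.61, SE 0.52, adjusted p = 0.00436), and Per3 at 8.18, 17.6 and 37.3 CPM against 79.6 and 71.6 CPM (log2 fold change -1.84, SE 0.47, adjusted p = 0.0146). The nuclear receptor gene Rora and the output factor gene Hlf fell with -1.89 (adjusted p = 0.0175) and -1.32 (adjusted p = 0.0182), and Clock rose with 0.82 (adjusted p = 0.0424). The hour of collection is not in the labels. With WT young as control 1 rose and none fell, and Per3 stood at 0.00 (adjusted p = 1). The count that fell was 1 without WT old 1, 3 without PKO cSCC 1 and 9 without PKO cSCC 3. Immediate early genes had 5 of 16 that fell and none that rose (median -0.83). Fosb, a subunit of AP-1, stood at 11.6, 84.7 and 26.1 CPM against 1128 and 285 CPM (log2 fold change -4.11, SE 0.72, adjusted p = 0.00309), and Jund, Dusp1 and Zfp36 fell with -1.11 (adjusted p = 0.0104), -2.05 (adjusted p = 0.0312) and -1.99 (adjusted p = 0.034). These genes are known to respond to tissue dissociation, whose protocol cannot be told apart from the tumour here. The count was 2 to 8 with 1 library left out, and 2 without PKO cSCC 1, PKO cSCC 3 or WT old 1. Of heat shock genes 2 of 10 rose, Hsp90aa1 and Hspa8 (none without PKO cSCC 2 or WT old 1), and of NRF2 and glutathione genes 3 of 19, led by the aldo-keto reductase gene Akr1b8 at 95.5, 37.4 and 44.3 CPM against 3.04 and 5.24 CPM (log2 fold change 3.83, SE 0.68, adjusted p = 0.00317).

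Carcinomas lacking both p53 and Wwox against young WT epidermis is the contrast of tumour and normal epidermis that shares no library with the one described here, though it shares the fit. There 1334 genes (7.34%) rose and 753 (4.15%) fell. Of the 1899 genes that rose in PKO cSCC against old WT, 542 rose there too, 28.54% of this list and 40.63% of that one. Of the 1977 that fell, 262 fell there too, 13.25% and 34.79%. Another 22 genes were called in opposite directions. Against old WT itself, 450 genes (2.48%) rose and 338 (1.86%) fell in DKO cSCC. Against young WT, Krt6a stood at 6.74 (adjusted p = 0.00335), Ube2c at 2.25 (adjusted p = 0.0145) and Tpi1 at 1.27 (adjusted p = 0.00806), while Krt77 at -1.02 (adjusted p = 0.52) and Notch1 at -0.15 (adjusted p = 0.792) did not pass. The library labelled DKO cSCC 3 has a Trp53 level of 45.5 CPM, against its label. Tested directly, PKO and DKO carcinomas differed in 2 of 18164 genes (0.011%, both lower in PKO cSCC), with 2628 at an unadjusted p under 0.05, so nearly all values above are not shown to be particular to carcinomas that keep Wwox.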

How the data were processed

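Each of the 20 bulk libraries was prepared with the SMARTer Stranded Total RNA-Seq chemistry for low input after a tdTomato sort, per the labels' protocols. Salmon 0.13.1, Trim Galore 0.4.1, DESeq2 1.28.1, FastQC 0.11.5 and the build mm39 appear in the submitters' processing notes, which give neither their roles nor their sequence. The authors deposited estimated counts per gene, as whole numbers. The 37 largest values, those with at least 7 digits, end in 0 throughout and were evidently rounded to multiples of 10. Symbols came from GENCODE names and covered 48246 of 51123 identifiers, and 3.74% to 12% of counts per library had none.

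Groups came from the labels. Genes were filtered by filterByExpr over the 7 groups, scaled by TMM and tested with edgeR 4.0.16 in R 4.3.3 (quasi-likelihood F test, all 20 libraries in 1 fit, 2-sided, Benjamini-Hochberg adjustment over all genes, threshold 0.05). Every adjusted p in the text is from this test unless another is named. The scripts were tested on simulated data. CPM are counts scaled to a common library total with TMM factors, not corrected for length, so levels are compared within a gene. SE is the standard error of a log2 fold change, worked back from the test as its absolute value divided by the square root of the F statistic. A permutation of 3 against 2 libraries could not reach 0.05. The labels call the samples biological replicates and do not say how many mice they came from. Depth is given in the results, and intervals cover counting error only.

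The named genes were the 12 widest gaps each way between the nearest libraries of the groups on log2(CPM + 0.5), among called genes with at least 10 CPM in each library of the higher group, leaving out predicted, ribosomal, mitochondrial, immune receptor, histone, small RNA and sex genes. Up to 4 members of each list with the smallest p were named as well. Further members were named after their values were seen. The comparison, the fit of all 20 libraries, the members and the lists were chosen with earlier results of these data known. Alternatives were other scalings and filters, DESeq2 1.42.0, limma 3.58.1 (voom, sample quality weights), fits of fewer libraries, a replicate block, a test against a log2 change of 1, WT young as control and each of the 5 libraries left out. Promoter sequences came from RefSeq (GRCm38.p6), a build other than the mm39 of the notes, and served for letters only. Some list members that are counted are not reported here by name.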

Additional observations from a re-analysis of the deposited data

Results flagged for a closer look

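A pair of genes differed between carcinomas that lack p53 and those that lack both p53 and Wwox, in the test of that difference itself. Cst6, the cystatin of the cornification pathway, was lower in PKO cSCC by a log2 fold change of -5.57 (edgeR, adjusted p = 0.0187). It stood at 2.63, 2.84 and 7.78 CPM in PKO cSCC and 129, 129 and 376 CPM in DKO cSCC, with old WT between them at 39.3 and 25.4 CPM. Cxcl12 was lower by -3.69 (adjusted p = 0.0187), at 2.26, 4.41 and 3.92 CPM in PKO cSCC and 64.7, 16.9 and 56.1 CPM in DKO cSCC, against 13.5 and 25.6 CPM in old WT. Every PKO carcinoma lay below every DKO carcinoma for both genes, the library labelled DKO cSCC 3, whose Trp53 level goes against its label, included.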

How the results depend on the processing

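The count of called genes (3876) ranged from 1603 to 3614 with 1 of the 5 libraries left out, where a group of old WT with 1 library is assumed to vary like the other groups. It was 845 with limma voom, 662 in the test against a log2 change of 1, 2 and 1 with 8 and 5 libraries in the fit, and 1956 with 8 libraries at an adjusted p of 0.1. Of the 606 tested members of lists other than the marker lists (other cell types, sex genes and milk genes), 192 were called. That count was 59 with voom, 61 against a log2 change of 1 and 85 to 207 with a library left out. It was 0 in the fits of 8 and 5 libraries, while DESeq2 called 191 from the 8. The marker lists are not part of these counts. The 804 calls shared with the pair without common libraries became 1495 with DESeq2, 411 with voom and 371 to 882 with a library left out. DESeq2 gave no adjusted p for Trp53. In the other alternatives its log2 fold change was below 0, but no longer past the threshold with voom (-3.83), with 8 (-3.18) or 5 libraries (-3.21), against a log2 change of 1 (-3.25) and with any 1 library left out (-3.56 to -2.80). Other scalings and filters left these counts within 1.5 times.

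The groups share replicate numbers, and nothing in the labels ties same-numbered libraries to a litter, batch or day. Their deviations from the group means correlated across 18164 genes at r = 0.024 for number 1 and 0.284 for number 2. With 2 old WT libraries the deviations of 1 mirror those of the other, so these values cannot decide on pairing. As the labels give no tie, the main fit held no replicate term. With a replicate block 3228 genes were called, of which 3146 were among the 3876.

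With WT young as control, the sign of the log2 fold change turned for Wwox (0.22), Krt1 (1.38), Pfkfb3 (0.29), Lcn2 (5.19), Krt15 (0.27), Scd1 (0.11), Krt8 (2.24), Cdh1 (0.016), Vim (-2.02), Col1a1 (-1.52), Dcn (-0.26), Tgfb3 (1.35), Per3 (0.00037) and Hlf (0.31). With voom, the sign of the log2 fold change turned for Fn1 (-0.98), Sox10 (-5.28), Vim (-1.35) and Dcn (-2.55). With 1 library left out it turned within the ranges of Cdkn1a (-1.35 to 0.21), Fn1 (-2.69 to 6.37), Sox10 (-4.70 to 2.84), Pfkfb3 (-0.88 to 0.76), Lcn2 (-3.16 to 4.24), Twist1 (-2.80 to 1.75), Vim (-1.91 to 2.54), Sparc (-0.66 to 5.58), Col1a1 (-0.29 to 4.002), Dcn (-5.66 to 5.48) and Hes1 (-1.49 to 0.66). The cause was not tested for any of these. Of the named genes' other values under an alternative, 2238 kept direction and side of the threshold, 683 fell short of it and 18 passed it. Depth limits values under about 3 counts per group, and 2 old WT libraries limit every comparison.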
